A study of Homo sapiens with 9 samples.

Results

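Integrins, the proteins that tie them to actin, and the extracellular matrix that they bind were examined as a set of 59 genes in a map of QKI‐5 binding sites. The genes were listed by name, from integrin chains through focal adhesion adaptors and kinases to collagens, laminins and other matrix proteins. A peak was assigned to a gene when it lay on the gene's strand with its centre inside the protein-coding span in GENCODE release 44. In total, 271 of the 24037 peaks in the map fell in these genes, and 32 of the 59 genes had at least 1 peak. The map came from mesHMLE cells, a mesenchymal derivative of the immortalised human mammary epithelial line HMLE, made with 2.5 ng/ml TGF‐β1 for at least 14 days and then grown without added TGF‐β1. Cells were irradiated at 600 mJ/cm2 to crosslink protein to RNA, and RNA bound to the nuclear isoform QKI‐5 was recovered with an antibody (HITS‐CLIP). There were 7 immunoprecipitation libraries, of which 3 were from the QKI‐5 monomer band and 4 from the dimer band (1 of these made with SuperScript IV), and 2 size-matched input libraries. All libraries came from this 1 line and were numbered as technical replicates.

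The libraries were pooled before peaks were called, so no value had a replicate error and no test between groups was possible. Many shares are given with their Wilson interval at the 95% level, which reflects counting error alone. A peak needs the RNA to be present, and these libraries do not measure RNA level. The study also sequenced RNA of this line, but those levels were not used here. A gene without a peak may therefore be unbound or little expressed, which the peak list alone does not separate. Of 8 mesenchymal marker genes, among them QKI itself, 7 had peaks (65 peaks in all, 24 of them in FN1, and SNAI2 had none). Of 8 epithelial marker genes 0 had any, beside 23.6% of all protein-coding genes. These short lists were chosen with earlier results of these data known, so the counts are not an independent check of the cell label.

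Integrins are pairs of an alpha and a beta chain that bind matrix outside the cell. Inside, talin and kindlin bind the beta chain, vinculin reinforces the link from talin to actin, and paxillin, focal adhesion kinase and their partners assemble around them as a focal adhesion. QKI‐5 is a STAR-family protein that binds the RNA hexamer ACUAAC and is known for the control of splicing from intronic sites, and epithelial to mesenchymal transition is accompanied by remodelling of adhesions and matrix.

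The sequences below show how the hexamer sat within the peaks that held it, which were 29 of the 271. They are the tallest intronic peaks with the hexamer in LPP, COL4A2, ITGA3, LIMS1 and VCL, each of which had 2 or more peaks with the hexamer. PTK2 also had 3 such peaks, which are not printed. To these were added, after their values were seen, the FERMT2 peak with 2 copies, the VCL peak at the start of exon 19, 60 nt of the tallest TLN1 peak, and the 30 nt around the hexamers of the 3′UTR peaks. For these 3′UTR peaks the hexamer lay within the peak named, and the 30 nt ran slightly past the peak's 3′ edge. All are read 5′ to 3′ on the gene's strand from the reference, as DNA, and capitals mark ACTAAC.
LPP intron 2, chr3:187962201-187962273 (hg19, plus strand), height 75: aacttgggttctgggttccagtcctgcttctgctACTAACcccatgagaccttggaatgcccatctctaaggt
COL4A2 intron 20, chr13:111107124-111107183 (plus), height 19: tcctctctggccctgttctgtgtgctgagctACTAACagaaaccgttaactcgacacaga
ITGA3 intron 3, chr17:48145075-48145165 (plus), height 96: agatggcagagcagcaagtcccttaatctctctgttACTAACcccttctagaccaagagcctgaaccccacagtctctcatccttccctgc
LIMS1 intron 1, chr2:109211619-109211726 (plus), height 28: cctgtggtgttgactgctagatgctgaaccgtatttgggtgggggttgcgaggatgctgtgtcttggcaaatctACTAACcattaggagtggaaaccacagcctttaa
VCL intron 19, chr10:75872517-75872667 (plus), height 155: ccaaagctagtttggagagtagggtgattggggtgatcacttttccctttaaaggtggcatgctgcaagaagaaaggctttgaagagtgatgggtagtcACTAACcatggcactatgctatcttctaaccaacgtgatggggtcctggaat
VCL exon 19 and the intron before it, chr10:75871616-75871785 (plus), height 80: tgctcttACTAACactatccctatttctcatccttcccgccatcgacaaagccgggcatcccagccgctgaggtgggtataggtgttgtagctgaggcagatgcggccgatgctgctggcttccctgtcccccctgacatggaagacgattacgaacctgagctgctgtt
FERMT2 intron 9, chr14:53340771-53340827 (minus), height 22: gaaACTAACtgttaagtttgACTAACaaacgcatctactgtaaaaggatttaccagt
TLN1 intron 1, chr9:35729891-35729950 (minus), height 219: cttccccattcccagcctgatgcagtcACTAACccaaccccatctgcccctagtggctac
COL12A1 3′UTR, within the peak chr6:75796078-75796156 (minus), height 39: gagactctttttACTAACttgaatgagaca
COL4A1 3′UTR, within the peak chr13:110802557-110802623 (minus), height 44: ggaatttgcgtaACTAACacaccctgcttc

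The share of these genes with a peak was 54.2% (41.7 to 66.3), beside 23.6% of all 20163 protein-coding genes. At least 10 peaks were found in 6 members (10.2%, 4.74 to 20.5), beside 2.79% of all protein-coding genes. The members were long genes, with a median span of 93.5 kb against 27.2 kb. Of the 30 members at or above the median member span, 21 (70%, 52.1 to 83.3) had a peak, beside 46.7% of all protein-coding genes of at least that span. Of the 29 shorter members, 11 (37.9%, 22.7 to 56) had one, beside 18.0% of the shorter protein-coding genes. RNA levels were not used here, so their part in these shares was not tested. The members were also chosen with earlier results of these data known. What that choice added to these shares, or to the shares of members given below, was not tested.

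Peaks were unevenly spread between the parts of the adhesion machinery. Of the 18 genes for proteins inside the cell, 13 had peaks (72.2%, 49.1 to 87.5), and these held 208 of the 271 peaks (76.8%). PTK2, TLN1, VCL and PTK2B, all in this group, held 145 of the 208. Of the 15 genes for membrane proteins, 4 had peaks (26.7%, 10.9 to 52), with 12 peaks in all. Of the 26 matrix and crosslinking genes, 15 had peaks (57.7%, 38.9 to 74.5), with 51 peaks. These shares, and the counts of members by role below, stand beside 23.6% of all protein-coding genes with a peak. Among protein-coding genes at or above the median member span it was 46.7%. The share of the membrane genes was thus near that of all protein-coding genes. The intervals for the intracellular and membrane genes overlapped narrowly, and this grouping was made after the counts were seen. The median span was 137 kb for the intracellular, 90.9 kb for the membrane and 84.9 kb for the matrix genes.

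**Figure D1:**
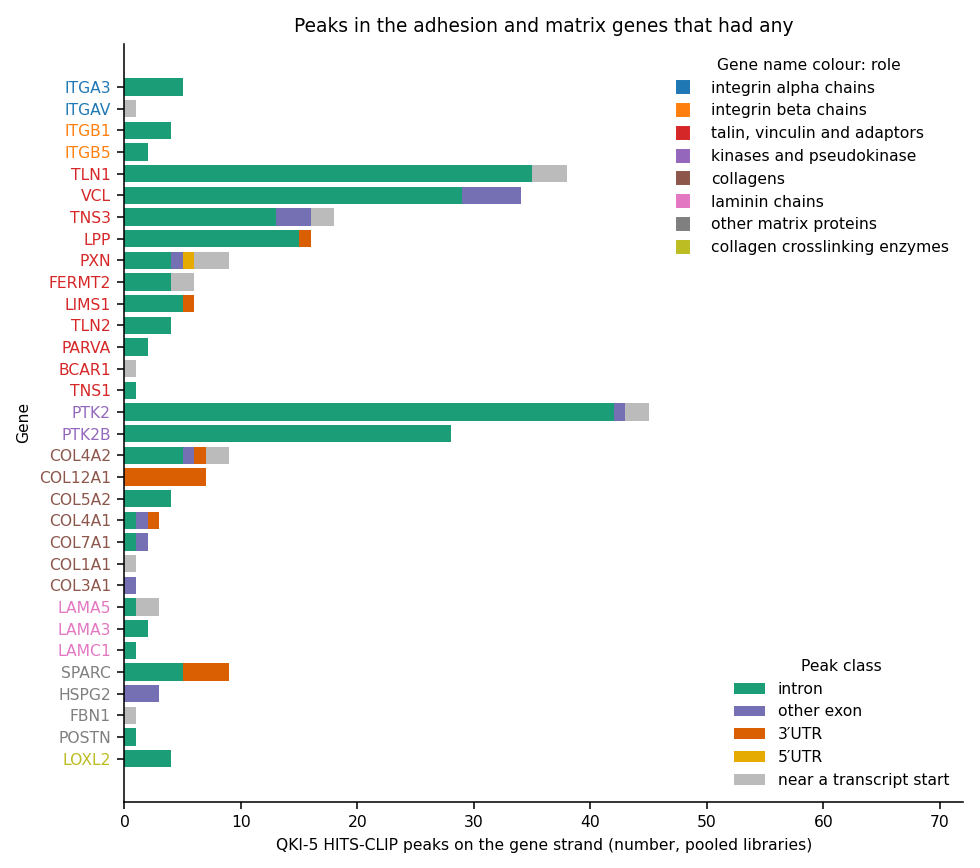
Number of QKI‐5 peaks (horizontal axis) in each of the 32 genes with a peak, stacked by the part of the gene that held the peak centre, with gene names coloured by role. PTK2, TLN1, VCL and PTK2B held 145 of the 271 peaks, mostly in introns, whereas all 7 peaks of COL12A1 lay in the 3′UTR.

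Among the integrin chains, 2 of 7 alpha chains and 2 of 6 beta chains had peaks, beside 23.6% of all protein-coding genes. ITGA3, an alpha chain of laminin receptors, had 5 intronic peaks with heights from 12 to 96 and a median of 21. The height is a whole number given for each peak over the pooled libraries, in a list without column names. It was read as peak height because a supplementary table that repeats the peaks calls it so, and its median over the list was 23. The tallest ITGA3 peak, printed above, lay with its centre 300 nt upstream of a 250-nt exon, and another peak of height 26 lay 27 nt downstream of that exon. ITGB1, the beta chain shared by most matrix-binding integrins, had 4 peaks of heights 14, 18, 28 and 49, all in intron 5. ITGB5 had 2 peaks (18 and 24) and ITGAV, its usual partner, had 1 (27), which held ACTAAC. No peak was found in ITGA1, ITGA2, ITGA5, ITGA6, ITGA11, ITGB3, ITGB4, ITGB6 or ITGB8, nor in the hyaluronan receptor CD44 or the tetraspanin CD151.

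The talin, vinculin and adaptor genes held 135 peaks in 11 of 15 members. TLN1, which encodes the talin that couples integrins to actin in most cells, had 38 peaks in a span of 35.2 kb, or 10.8 peaks per 10 kb, against 0.391 per 10 kb over all members and 0.161 over all protein-coding genes. Of these, 35 lay in intron 1 (introns and exons are numbered in the canonical transcript), a 6347-nt intron, and covered 56.5% of a stretch of 5665 nt. Their heights ran from 6 to 219 with a median of 24. The tallest was 379 nt wide and held the 1 ACTAAC found anywhere in that stretch. TLN2, a paralogue 454 kb long, had 4 peaks (13 to 84), all in intron 1, of which the tallest held ACTAAC.

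VCL had 34 peaks, of which 31 lay between chr10:75869850 and chr10:75874250 (hg19), around exon 19. Exon 19 (204 nt, chr10:75871667-75871870) was present in 1 of the 2 protein-coding transcripts that span it, and is the exon that distinguishes metavinculin, the muscle-enriched isoform, from vinculin. Intron 18 had 7 peaks (8 to 38), exon 19 had 2 (80 and 26), intron 19 had 20 (9 to 155) and intron 20 had 2 (10 and 14). Heights were greatest downstream of the exon, where peaks of 123 and 155 lay 452 and 722 nt past its end. The peak of height 80 crossed the start of the exon, and its ACTAAC began 44 nt upstream of the exon. ACTAAC resembles the consensus of the splicing branch point, which usually lies at a like distance from a 3′ splice site. Over the whole stretch of 4401 nt there were 2 copies of ACTAAC, both inside peaks.

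The other adaptors had fewer and more scattered peaks. TNS3, a tensin that binds beta chains and actin, had 18 peaks (12 to 88), of which 13 lay in its 52903-nt intron 1. LPP, a zyxin-family LIM protein, had 16 peaks (5 to 91) over 737 kb, and 7 of them held ACTAAC. That was the highest number of ACTAAC peaks in any member. LPP's tallest peak lay in the 3′UTR and lacked the hexamer. PXN (paxillin) had 9 peaks (11 to 73), and the tallest lay 111 nt upstream of a 102-nt exon. LIMS1 (PINCH1) and FERMT2 (kindlin-2) had 6 each, with tallest heights of 30 and 28. PARVA had 2, and BCAR1 and TNS1 had 1 each. ZYX, PARVB, FERMT1 and TRIP6 had none. FERMT1 is the kindlin of epithelia.

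Both focal adhesion kinases had many peaks. PTK2, which encodes focal adhesion kinase, had 45, the most of any member and rank 36 among all protein-coding genes. They were spread over 10 of its introns, with 15 in intron 25 and 12 in intron 3, and ranged from 9 to 559 with a median of 25. The peak of 559 was the tallest in the set. It held ACTAAC and lay in intron 3, 4927 nt from the nearest exon. PTK2B, which encodes the related kinase PYK2, had 28 peaks (10 to 76), of which 25 lay in intron 24 and covered 45.4% of a stretch of 4651 nt. The first of these lay 61 nt downstream of a 126-nt exon present in 2 of the 4 transcripts that span it. No ACTAAC or ACTAAT occurred anywhere in that stretch. ILK, a pseudokinase in a complex with PINCH and parvin, had no peak.

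**Figure D2:**
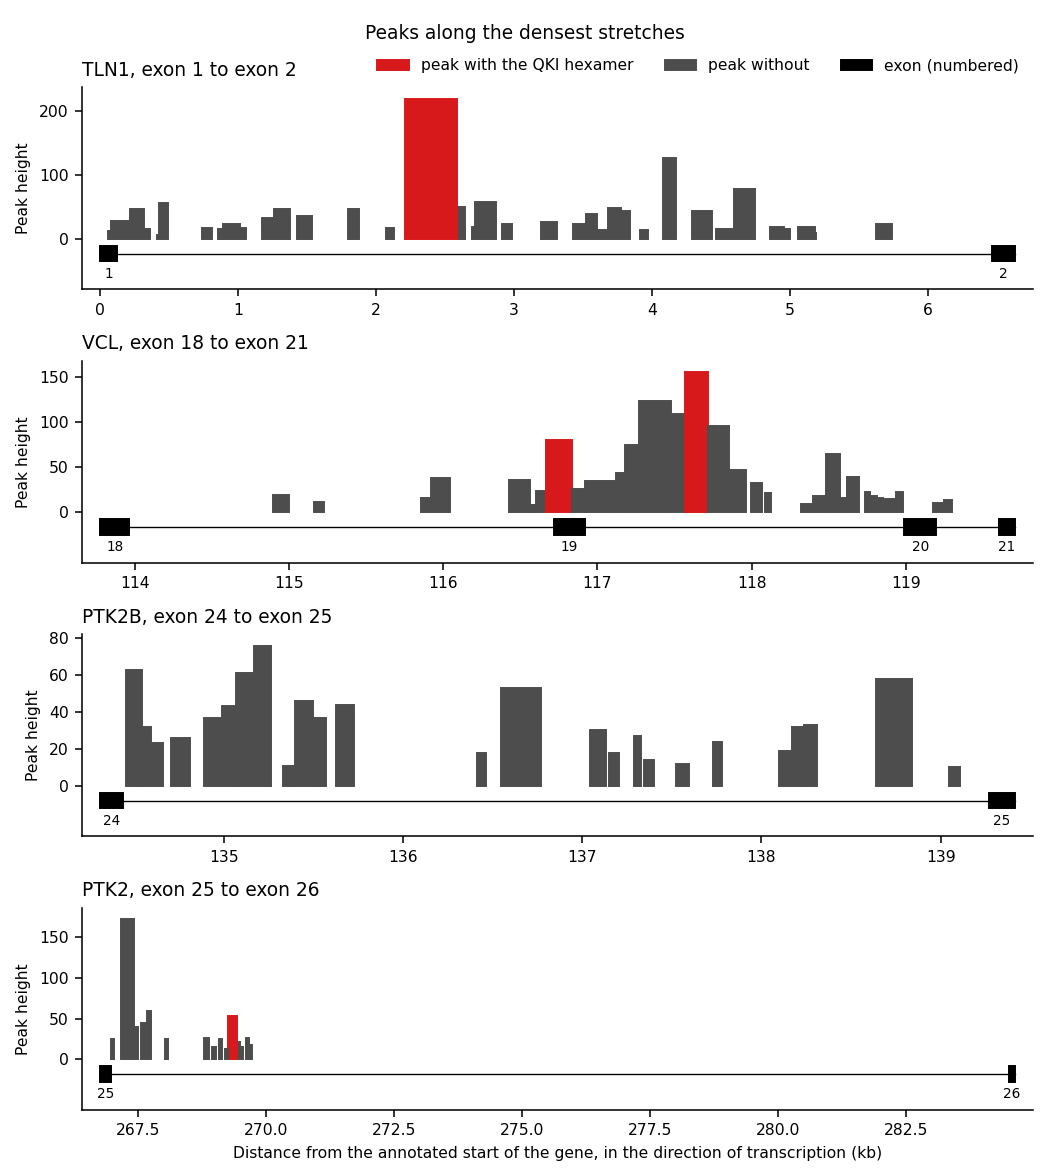
Peaks along the stretches of TLN1, VCL, PTK2B and PTK2 with the most peaks; the horizontal axis is the distance from the annotated start of the gene in kb and the vertical axis is peak height. Red bars are peaks with ACTAAC (the QKI hexamer), grey bars peaks without it and black boxes the numbered exons; these introns (with exons 19 and 20 for VCL) hold 35, 31, 25 and 15 peaks, 1 more TLN1 peak is centred in exon 1, and the PTK2B stretch has no red bar.

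Collagens, which form the fibrils and basement membrane networks that integrins bind, had peaks in 7 of 12 members (27 peaks). COL4A2, a basement membrane collagen, had 9 low peaks (10 to 29), and COL4A1, its partner in the same trimer, had 3 (16, 21 and 44). COL12A1, a collagen that associates with fibrils, had 7 peaks with heights of 12, 37, 39, 39, 40, 43 and 47, all in the 3′UTR. COL5A2 had 4, COL7A1 had 2, and COL1A1 and COL3A1 had 1 each, with heights of 20 and 19. COL1A2, COL5A1, COL6A1, COL6A2 and COL6A3 had none.

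SPARC, a matricellular protein that binds collagen, had 9 peaks in 25.9 kb (3.48 per 10 kb). Of these, 4 lay side by side in the 3′UTR, with heights of 34, 121, 189 and 197, and none of the 4 held ACTAAC. Its 5 intronic peaks, from 12 to 48, were lower than the 3′UTR peaks of 121, 189 and 197 but not all lower than that of 34. Perlecan (HSPG2) had 3 peaks, and POSTN and FBN1 had 1 each (24 and 17). TNC, THBS1 and VCAN had none. Of the laminin chains, LAMA5 had 3 peaks, LAMA3 had 2 and LAMC1 had 1 (63), whereas LAMB1 and LAMB3 had none. LOXL2, which crosslinks collagen, had 4 intronic peaks (20 to 41) and LOX had none.

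**Figure D3:**
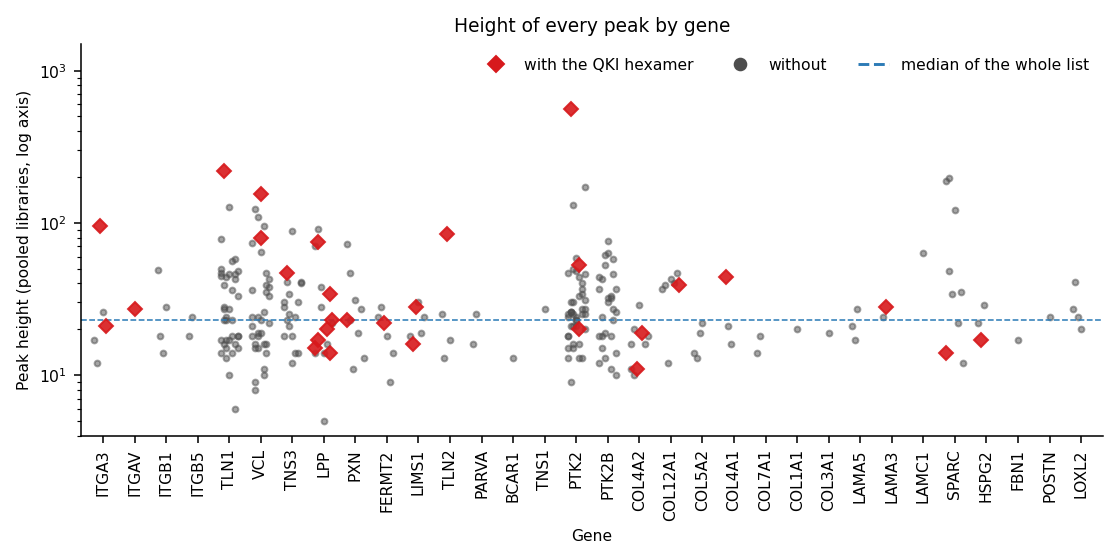
Height of each of the 271 peaks (vertical axis, logarithmic) by gene, in the order of the roles. Red diamonds are peaks with ACTAAC and the dashed line is the median of the whole list (23); the PTK2 peak of 559 stands highest, and the 3′UTR peaks of SPARC reach 197.

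Introns held 218 of the 271 peaks (80.4%, 75.3 to 84.7), beside 74.6% of all peaks in protein-coding genes. This share rested on the 4 genes with the most peaks, since it was 92.4% of their 145 peaks and 66.7% of the other 126. The 3′UTR held 15 peaks (5.54%, beside 8.13%), in COL12A1, SPARC, COL4A1, COL4A2, LIMS1 and LPP. A 3′UTR peak was thus found in 6 of 59 members (10.2%, 4.74 to 20.5), beside 4.10% of all protein-coding genes, with no split by gene span. In COL4A2 this was the 3′UTR of a transcript that ends within intron 4. None of these 15 was in an integrin chain, and 13 were in matrix genes. The 3′UTR peaks had a median height of 40, and 12 of the 15 reached 33, the upper quartile of the list. Most of these 12 were neighbouring peaks in COL12A1 and SPARC. The height of 3′UTR peaks over all protein-coding genes was not computed. Exonic peaks outside UTRs numbered 17 (6.27%, beside 6.96% of all peaks in protein-coding genes), with a median height of 22. This class counts exons of any transcript of the gene, also noncoding ones, and most of these peaks lay in introns of the canonical transcript. The only ones at or above 33 were the VCL exon 19 peak of 80 and a TNS3 peak of 34. The TNS3 peak lay in canonical intron 1, 2092 nt from the nearest exon of a protein-coding transcript.

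Over all members the median height was 24 (22 to 26, from order statistics), beside 23 for all peaks in protein-coding genes. Height reached 33 in 31.7% of member peaks and 24.6% of all peaks in protein-coding genes. The difference rested on the 4 genes with the most peaks, since 55 of their 145 peaks reached it (37.9%) and 31 of the other 126 (24.6%). The heights of member peaks with ACTAAC had a median of 27 (n = 29), beside 24 for the other 242. Neighbouring peaks often abutted, and joining those within 100 nt left 157 peaks.

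A larger share of the intronic peaks of these genes lay close to an exon. Within 250 nt of one were 34 of 218 (15.6%, 11.4 to 21), beside 7.95% of all intronic peaks in protein-coding genes, and this share was 16.7% (14 of 84) without the 4 genes with the most peaks. In members, 17 of these peaks were downstream and 17 upstream of the exon, whereas over all protein-coding genes 790 were downstream and 451 upstream. Most of the 17 upstream peaks lay in VCL and SPARC, so the even split in members rested on these genes. Far from exons the values depended on the same 4 genes. Over 5000 nt away were 17% of the members' intronic peaks, beside 38.5% over all protein-coding genes, but these were 8 of 134 (5.97%) in the 4 genes and 29 of 84 (34.5%, 25.2 to 45.2) in the others. The median distance was 1501.5 nt in all members, 2257.5 nt without the 4 genes and 2905.5 nt over all protein-coding genes. Peaks were clustered in a few introns and are not independent.

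**Figure D4:**
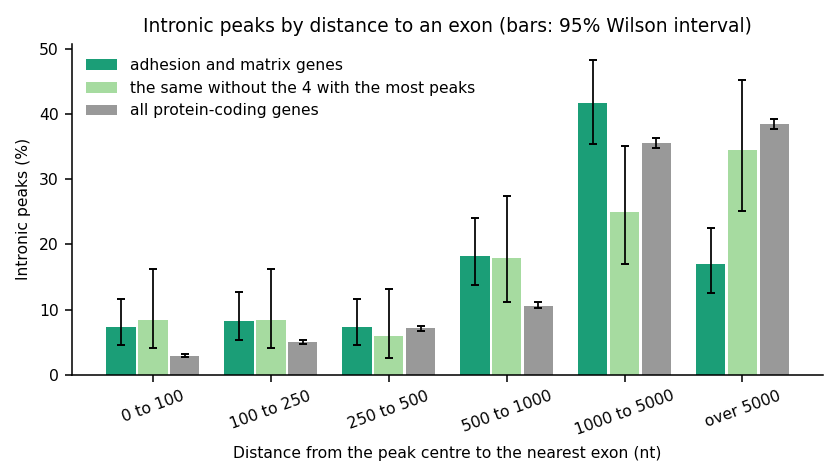
Share of intronic peaks (vertical axis, percent, with 95% Wilson intervals) by distance from the peak centre to the nearest exon of the gene, for the 218 intronic peaks of the adhesion and matrix genes, the 84 that remain without PTK2, TLN1, VCL and PTK2B, and the 15606 of all protein-coding genes. The share over 5000 nt is 17%, 34.5% and 38.5% in that order.

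Of the peaks classed as intronic, the tallest within 250 nt of an internal exon were in PXN (73), PTK2B (63), SPARC (48) and VCL (43). A TLN1 peak of 45, classed with the promoters because a transcript starts near it, lay 182 nt upstream of a 147-nt internal exon. In SPARC, the 48 lay 149 nt upstream of a 226-nt exon found in 1 of 5 spanning transcripts, and a run of 3 peaks (35, 12 and 14) lay 28 to 142 nt upstream of a 121-nt exon. In LAMA3, a peak of 28 with ACTAAC lay 61 nt downstream of a 47-nt exon, and in LOXL2 a peak of 27 lay 59 nt upstream of a 112-nt exon.

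ACTAAC occurred in 29 of the 271 peaks (10.7%, 7.55 to 14.9), beside 10.5% of all peaks in protein-coding genes. In windows of the same width 500 nt to the 5′ or 3′ side it occurred in 4 (1.48%) on each side, and on the opposite strand of the peaks in 1 (0.369%). In 25 of the 29 peaks it lay within 25 nt of the summit, with a median of 11 nt. The hexamer had to lie inside the peak, and these peaks had a median width of 71 nt, which bounds the distance. No expected distance was computed. With ACTAAT also allowed, 12.5% of member peaks and 14.3% of all peaks held a copy. A copy of either with TAAC or TAAT within 20 nt was found in 6.27% and 5.78%.

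The hexamer was unevenly shared between genes. In PTK2, TLN1, VCL and PTK2B it was present in 6 of 145 peaks (4.14%, 1.91 to 8.73), whereas in the other 28 genes with peaks it was present in 23 of 126 (18.3%, 12.5 to 25.9). Of the 23, 7 were in LPP. The 4 genes were picked by their number of peaks, which is also the denominator of this share, so the choice itself can lower it. Their peaks often abutted in dense stretches, and the intervals count each peak as independent. The share was not computed on joined peaks. Median heights were 25 in the 4 genes against 22.5 in the others, and median widths 70 against 60 nt. Whether height or width bears on the hexamer share was not tested. At least 1 peak with ACTAAC was found in 17 of 59 members (28.8%, 18.8 to 41.4), beside 7.83% of all protein-coding genes. This share of genes was not split by gene span. Per peak, the hexamer shares were 10.7% in members and 10.5% in all protein-coding genes.

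**Figure D5:**
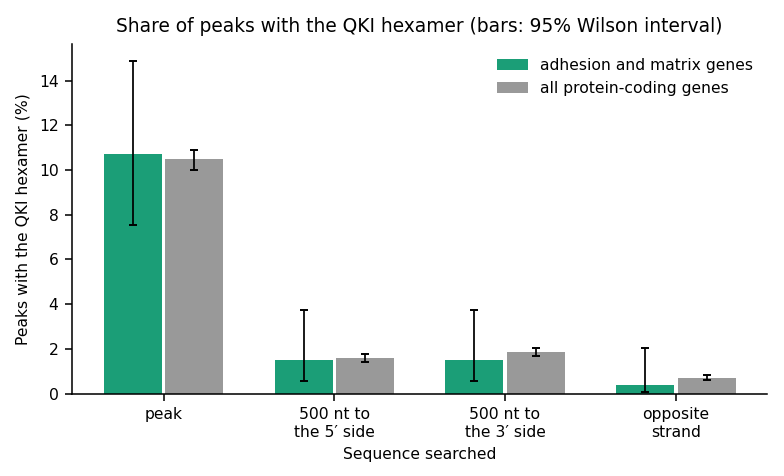
Share of peaks with ACTAAC, the QKI hexamer (vertical axis, percent, with 95% Wilson intervals), in the peak, in windows of the same width 500 nt to either side and on the opposite strand, for 271 peaks of the adhesion and matrix genes and 20913 of all protein-coding genes. The peak bars stand at 10.7% and 10.5%, and the other bars lie at or below 1.86%.

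A wider list of 79 other integrin, adhesion and matrix genes had peaks in 27 (34.2%, 24.7 to 45.2), beside 23.6% of all protein-coding genes. These 27 held 265 peaks and the other 52 had none. Gene span was not taken into account. Those with the most peaks were DST, a linker of hemidesmosomes and the cytoskeleton (57), ACTN4, which crosslinks actin at adhesions (30), and COL4A5 (29). On the strand opposite to the members, 7 peaks were found in 6 of the 59 genes. The share over all protein-coding genes was not computed for the opposite strand.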

How the data were processed

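Per the submitters' processing notes and the study's methods, the authors trimmed reads (cutadapt 1.3), mapped them to hg19 (TopHat2 2.0.10), collapsed duplicates by position and molecular barcode, dropped low mapping quality, pooled libraries and called peaks per strand with MACS2 2.1.1.20160309 against the input. The deposited list has no column names and gives 1 signal value per peak, a whole number not scaled to depth, read here as the height from a supplementary heading. Depth per library is not given in the sources used here.

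Here, genes came from GENCODE release 44 on hg19 and sequence from GRCh37 (Python 3.11.15, pysam 0.24.0, samtools 1.23.1). The 18 mitochondrial peaks were left out. A peak centre from 1000 nt upstream to 100 nt downstream of any transcript start of the gene was classed as promoter first. UTRs came next (5′ before 3′), then other exons of any transcript of the gene, coding or not, and introns last. The classing was tested on simulated data. The members and lists were chosen with earlier results of these data known. Named genes are all members by role, with values for those with most peaks, the tallest peaks, and tall 3′UTR or exonic peaks and peaks near exons. Alternatives were height filters, overlap, strand, merging, class order, motif, window and distance settings.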

Additional observations from a re-analysis of the deposited data

How the results depend on the processing

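With peaks at or above the list's median height, 152 peaks remained in 26 members, and at or above the upper quartile 86 peaks in 15 members. On the opposite strand there were 7 peaks in 6 members, and joining peaks within 100 nt gave 157. Any overlap with the gene (272 peaks in 32 members) or leaving out peaks that also lay in another gene (269 in 31) moved little. The intronic share was 94.8% with introns ranked first, 85.2% with the promoter class left out and 66.7% without the 4 members with the most peaks; the last 2 settings were chosen after seeing the data. The share with ACTAAC was 0.369% on the opposite strand, 1.48% in the windows to the 5′ side and 1.48% to the 3′ side, and 18.3% without the same 4 members, whose removal also took the share of intronic peaks over 5000 nt from an exon from 17% to 34.5%. Within 100 nt of an exon were 7.34% of intronic peaks and within 500 nt 22.9%. Leaving out PTK2 gave an intronic share of 77.9%, an ACTAAC share of 11.5% and a median height of 23.5. No paired analysis was possible because the libraries were pooled before peaks were called and no result comes from a test. For the same reason no library could be left out, and what depth limits cannot be stated per library.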
